A study of Mus musculus with 4 samples.

Results

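The mitogen-activated protein kinase (MAPK) cascade and the dual-specificity phosphatases (DUSPs) that switch it off were represented by 30 regions of accessible chromatin that differed between Sin3B+/+ and Sin3B-/- long-term hematopoietic stem cells (LT-HSCs). They were chosen by gene symbol alone, as every peak annotated to a gene whose symbol starts with Map2k, Map3k or Map4k and a number, with Mapk, or with Dusp and a number, and they made up 30 of the 5332 peaks and 20 of the 4376 genes of the deposited table. ATAC-Seq, in which a transposase inserts sequencing adapters into open DNA, had been run on 2 libraries per genotype, 4 in all, and each library held the sorted cells of 2 C57BL/6 mice. In the Sin3B-/- mice a floxed Sin3B gene was deleted by the Vav1-iCre transgene, which acts throughout the blood system from before birth, so the deletion was not confined to LT-HSCs. The controls are labelled WT. The study names them Sin3B+/+ and, in places, Sin3B F/F, for the floxed gene without the deletion. The mice were at homeostasis and their ages were not given for this assay. LT-HSCs were sorted from bone marrow as Lineage-, Sca-1+, cKit+, Flk2-, CD48- and CD150+ cells. Sin3B is a scaffold protein that brings histone deacetylases to DNA and is known for holding cells in quiescence.

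In the cascade, MAP4Ks and small GTPases act on MAP3Ks, MAP3Ks phosphorylate MAP2Ks, and MAP2Ks phosphorylate a threonine and a tyrosine of the MAPKs, which are the ERK, JNK and p38 families. MAPK-activated kinases such as Mapkapk3 and Mapkapk5 carry the signal on. The classical DUSPs remove both phosphates again, and several of their genes are themselves induced by MAPK signaling, which makes them feedback inhibitors. In blood stem cells this signaling is known for linking growth factor, cytokine and stress input to the decision to divide.

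The table held only peaks that the authors had already called different between the genotypes, so a call here is not independent of that choice, and a gene without a peak in it may still have accessible chromatin. The level of a peak is the deposited normalized signal in 1 library. Summed over the table it was 1657641 to 1986378 in the Sin3B+/+ and 2837467 to 3102888 in the Sin3B-/- libraries, and the total sequencing depth is unknown here. Within a library all values fell on a regular grid, with the smallest unit in Sin3B+/+ replicate 1 (0.2282) and the largest in Sin3B-/- replicate 2 (1.0). Counted in these units, the sums came to 8705855 and 4836132 for the controls and 4541377 and 3102888 for the knockouts, the opposite order. If a unit stands for 1 read, which could not be established, the direction of most peaks rested on the factor each library was given. The controls had median log2 levels of 7.75 and 7.5 and the knockouts of 8.32 and 8.43, so most of the table stood higher in Sin3B-/- on the deposited scale. Of 9 markers of LT-HSCs and of their sort, 4 had peaks (Fgd5, Hoxb5, Procr and Slamf1). All 5 of these peaks were higher in Sin3B-/- on the deposited scale, as were 95.7% of all peaks. With each library centred on its median their median log2 fold change was 0.06, and none was called, against 7.01% of the table called higher. Of the 20 markers of other cells, only Csf1r and Klf1 had a peak (log2 fold change 0.86 and 0.6), and their part in the results was not tested. Sin3b itself had no peak in the table, so the deletion could not be checked in these values.

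A few stretches from the 30 peaks are printed 5′ to 3′ (build GRCm38). The first 3 run up to a transcription start, on the strand of the gene, from the only peak that was lower in Sin3B-/-, from the Dusp1 promoter and from the highest peak, that of Map3k3. They are Mapk10 at chr5:103211335-103211573 on the minus strand, Dusp1 at chr17:26508520-26508769 on the minus strand and Map3k3 at chr11:106084363-106084612 on the plus strand. Capitals mark the cyclic AMP response element (CRE, TGACGTCA) in Mapk10 and Dusp1 and the NF-Y letters CCAAT, read on the opposite strand as ATTGG, in Map3k3.
Mapk10 start: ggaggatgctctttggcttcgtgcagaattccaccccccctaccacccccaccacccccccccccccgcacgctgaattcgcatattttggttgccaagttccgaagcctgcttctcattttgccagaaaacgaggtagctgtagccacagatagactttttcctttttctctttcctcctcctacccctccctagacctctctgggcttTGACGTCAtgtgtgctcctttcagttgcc
Dusp1 start: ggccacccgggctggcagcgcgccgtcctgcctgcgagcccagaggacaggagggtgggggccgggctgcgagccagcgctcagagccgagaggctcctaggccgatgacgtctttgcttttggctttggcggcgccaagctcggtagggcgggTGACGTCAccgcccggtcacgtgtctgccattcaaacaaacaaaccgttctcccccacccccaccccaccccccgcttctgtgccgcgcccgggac
Map3k3 start: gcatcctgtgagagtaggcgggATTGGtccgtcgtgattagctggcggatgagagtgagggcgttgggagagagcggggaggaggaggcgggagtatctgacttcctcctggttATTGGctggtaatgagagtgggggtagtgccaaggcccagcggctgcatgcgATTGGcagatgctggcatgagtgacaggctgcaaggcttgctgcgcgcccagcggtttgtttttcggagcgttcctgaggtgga

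The other 3 are the central bases, on the plus strand, of peaks inside genes. They show the peak with the largest gain, in Map3k6 (chr4:133247928-133248127), the peak with the largest gain among the MAPKs themselves, in an intron of Mapk14 (chr17:28697476-28697675), and the intron peak of Map2k3, which encodes a kinase of Mapk14 (chr11:60935490-60935689). Capitals in Map3k6 mark the Sp/KLF letters GGGCGG and, read on the opposite strand, the GATA letters AGATAA. Capitals in Map2k3 mark the AP-1 letters TGANTCA. The Mapk14 stretch held none of the 10 motifs searched.
Map3k6 exon peak: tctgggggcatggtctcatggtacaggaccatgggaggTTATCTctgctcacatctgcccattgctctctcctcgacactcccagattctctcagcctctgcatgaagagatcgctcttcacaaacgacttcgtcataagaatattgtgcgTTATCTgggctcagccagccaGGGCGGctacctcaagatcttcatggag
Mapk14 intron peak: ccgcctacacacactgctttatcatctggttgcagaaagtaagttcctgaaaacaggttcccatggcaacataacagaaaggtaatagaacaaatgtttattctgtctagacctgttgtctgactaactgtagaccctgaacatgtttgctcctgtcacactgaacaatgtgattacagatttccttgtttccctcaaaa
Map2k3 intron peak: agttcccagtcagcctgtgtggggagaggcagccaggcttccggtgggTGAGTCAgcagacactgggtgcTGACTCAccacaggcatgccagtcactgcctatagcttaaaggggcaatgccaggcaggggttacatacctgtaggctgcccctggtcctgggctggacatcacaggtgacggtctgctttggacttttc

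On the deposited scale 29 of the 30 peaks were higher and 1 was lower in Sin3B-/- LT-HSCs (limma on log2(level + 1), Benjamini-Hochberg adjusted p below 0.05 over all 5332 peaks), but with each library centred on its median over the table only 1 peak, in an exon of Map3k6, was called higher and 17 of the 29 turned to a value below 0. The whole table behaved alike, with 95.7% of its peaks called higher and 4.29% called lower on the deposited scale, and 7.01% and 4.29% after centring. The share of members called higher, 96.7%, was thus near that of any peaks of the table. The median log2 fold change was 0.71 over the 30 peaks, with the middle 50% between 0.64 and 0.81, against 0.76 over the table, and 19 of the 30 lay below the table's median. A gain of at least 1 on the log2 scale was seen in 4 of the 30 peaks (13.3%) and in 22.4% of the table. Both Sin3B-/- libraries lay above both Sin3B+/+ libraries in 29 peaks and below both in 1, so the genotypes overlapped in none of the 30. The same held for every peak of the table (95.7% above and 4.29% below), since it lists only peaks called different. In pooled cells, more cells with an open site and a site more open in each cell cannot be told apart. Every fold change carried a standard error of 0.215, because limma gave 1 pooled spread to all peaks. The p-values thus ranked the peaks by size of fold change alone, and not by the spread measured at each peak. Within a genotype the libraries also differed in a common direction. Sin3B+/+ replicate 1 was above replicate 2 in 29 of the 30 peaks and in 87.7% of the table. Leaving out Sin3B-/- replicate 2 left 14 of the 29 called higher, beside 58.5% of the table. The 15 peaks no longer called were those of Map4k1, Map4k2, Map3k1 (both), Dusp2 (both), Dusp6, Dusp11, Dusp22, Dusp23 and Mapkbp1, the intron peak of Map2k3, the start of Mapkapk3, and the promoter and intron of Dusp4, with log2 fold changes of 0.4 to 0.64 (limma adjusted p from 0.051 to 0.19). Leaving out Sin3B+/+ replicate 2 ended the calls of Map4k1, Dusp23, Mapkbp1 and the Dusp4 promoter, and leaving out Sin3B-/- replicate 1 those of the Dusp4 promoter and of the Dusp1 peak nearer to the gene's end.

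**Figure D1:**
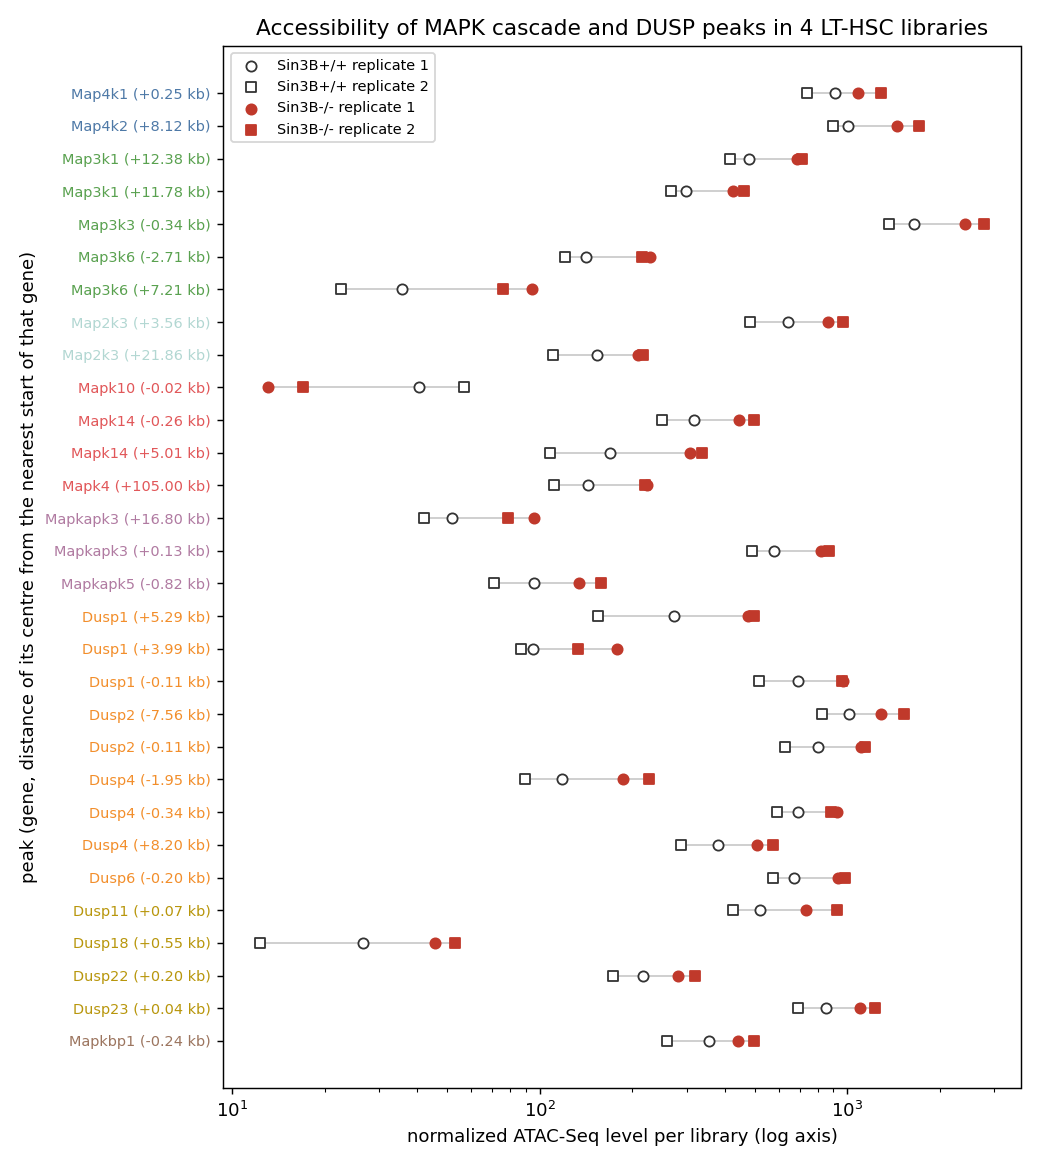
Normalized ATAC-Seq level (log axis) of each of the 30 peaks in the 4 libraries, with open symbols for Sin3B+/+ and filled symbols for Sin3B-/-, circles for replicate 1 and squares for replicate 2, and gene names coloured by tier. The filled symbols lie to the right of the open ones in 29 peaks, on the deposited scale, and to the left only in Mapk10.

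Mapk10 had the only peak that closed. Mapk10 encodes JNK3, a stress-activated kinase best known from the nervous system. Its peak (chr5:103211131-103211573) spanned the annotated start, with its center 18 bp upstream. It measured 40.4 and 56.9 in Sin3B+/+ and 13.1 and 17.0 in Sin3B-/- (replicates 1 and 2 in this order here and at every other peak). Both knockout libraries were thus below both controls, as at every lower peak of the table. The means were 48.6 ± 11.7 and 15.1 ± 2.74 (SD, n = 2 libraries each), a log2 fold change of -1.62 (limma adjusted p = 1.5e-12). The difference was -2.37 with centred libraries, and it lay between -1.86 and -1.38 when each library was left out in turn. The mean level over the 4 libraries was only 31.9, close to the lowest mean level among the higher peaks of the table, 31.8. The peak ranked 67 of the 229 lower peaks of the table by size of change. It was 1 of 26 lower peaks that spanned the start of their gene. No other peak of the table lay within 100 kb of Mapk10.

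Mapk14 encodes p38α, the MAPK that responds most broadly to stress and cytokines, and it had a promoter peak and an intron peak. The promoter peak (chr17:28691894-28692725, centered 259 bp upstream of a start) had levels of 318 and 249.9 in Sin3B+/+ and of 443 and 498 in Sin3B-/-. The intron peak (chr17:28697280-28697870, 5007 bp into the gene) had levels of 169 and 108 in Sin3B+/+ and of 309 and 338 in Sin3B-/-. Every knockout value was above every control value at both sites, as at every higher peak of the table. The intron peak showed the larger difference, 1.25 on the log2 scale (limma adjusted p = 5.1e-08) against 0.73 at the promoter (0.0011). The difference between the 2 sites itself was not tested. After centring the intron peak stood at 0.5 and the promoter peak at -0.02, and neither passed the threshold.

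Mapk4 encodes ERK4, an atypical MAPK that binds and activates Mapkapk5. Its peak (chr18:73959513-73960341) lay deep in an intron, 104995 bp from the nearest start of the gene and 57980 bp from that of D730045A05Rik. It measured 144 and 111 in Sin3B+/+ and 224 and 220.0 in Sin3B-/-, a log2 fold change of 0.81 (limma adjusted p = 3.9e-04). The 2 knockout libraries were closer to each other than the 2 controls were.

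One tier up, Map2k3 was the only MAP2K with peaks. It encodes a kinase that activates the p38 family. The intron peak (chr11:60935255-60935923, 3556 bp from the start) measured 641 and 483 in Sin3B+/+ and 868 and 969 in Sin3B-/-. The peak beyond the gene's end (chr11:60953527-60954249, 21855 bp from the start) measured 154 and 110.4 in Sin3B+/+ and 209 and 217 in Sin3B-/-. The 2 peaks thus rose by nearly the same amount, 0.72 and 0.7 on the log2 scale (limma adjusted p = 0.0013 and 0.0017), although the first had the far higher level, and stood at -0.03 and -0.05 after centring. Without Sin3B+/+ replicate 2 the value of the second fell to 0.46. The intron peak held 2 AP-1 matches, which begin at bases 49 and 71 of the stretch printed above.

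Among the MAP3Ks, Map3k6 had the peak that rose most and Map3k3 the peak with the highest level. Map3k6 encodes ASK2, a stress-responsive relative of the apoptosis signal-regulating kinase ASK1. The peak centered in one of its exons (chr4:133247793-133248261, 7209 bp from the start) measured 35.6 and 22.6 in Sin3B+/+ and 94.3 and 76.0 in Sin3B-/-. The means were 29.1 ± 9.17 and 85.2 ± 13.0 (SD, n = 2 each), a log2 fold change of 1.54 (limma adjusted p = 1.6e-11). This was the single member still called higher after centring (log2 fold change 0.79, limma adjusted p = 0.028), and it ranked 177 of the table's peaks by gain. A peak 2712 bp upstream of the same gene (chr4:133237912-133238300) measured 141 and 121 in Sin3B+/+ and 229 and 215 in Sin3B-/-. It rose by about the table's median, 0.77 on the log2 scale (limma adjusted p = 7.1e-04).

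Map3k3 encodes MEKK3, an activator of the ERK5 and p38 branches that is known for its part in vascular development. Its promoter peak (chr11:106083833-106084708, centered 343 bp upstream of the start) measured 1649 and 1367 in Sin3B+/+ and 2409 and 2785 in Sin3B-/-, the highest levels among the 30 peaks. The log2 fold change was 0.79 (limma adjusted p = 5.2e-04). Map3k1 encodes MEKK1, which acts mainly on the JNK branch, and had 2 intron peaks less than 1 kb apart. The smaller change of the 2 was that at chr13:111797028-111797391, with 299 and 268 in Sin3B+/+ and 424 and 462 in Sin3B-/- (log2 fold change 0.64, limma adjusted p = 0.0036), and the other measured 0.65.

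At the top of the cascade, Map4k1 and Map4k2 had a peak each. Map4k1, or HPK1, is a kinase found mainly in blood cells, where it restrains antigen receptor signaling. Its peak (chr7:28981625-28982973) spanned the start of the gene and measured 913 and 741 in Sin3B+/+ and 1084 and 1286 in Sin3B-/-. This was among the smallest gains, 0.52 on the log2 scale (limma adjusted p = 0.016), above only 7.18% of the table's values with the lower peaks included, and it was not called without Sin3B+/+ replicate 2 (0.37, adjusted p = 0.099) or without Sin3B-/- replicate 2 (0.4, adjusted p = 0.19). Map4k2, or germinal center kinase, had an intron peak (chr19:6348729-6349831, 8120 bp from the start) at 1003 and 899 in Sin3B+/+ and at 1452 and 1711 in Sin3B-/-. Its log2 fold change was 0.73 (limma adjusted p = 0.0012). After centring these values were -0.23 and -0.02. The start nearest to the Map4k2 peak was that of Mir6989, 2800 bp away.

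Downstream of the MAPKs, both kinases with peaks rose on the deposited scale. Mapkapk3 encodes a target of p38 closely related to Mapkapk2, for which the table had no peak. Its intron peak (chr9:107272195-107272887) measured 51.8 and 42.2 in Sin3B+/+ and 95.6 and 79.0 in Sin3B-/- (log2 fold change 0.88, limma adjusted p = 1.2e-04). The peak over its start (chr9:107289397-107290100) measured 576 and 490.1 in Sin3B+/+ and 821 and 874 in Sin3B-/- (0.67, adjusted p = 0.0025). The weak peak within the gene thus had the somewhat larger ratio. Mapkapk5, the partner of ERK4, had a peak 820 bp upstream of its start (chr5:121546539-121546912) at 96.1 and 71.0 in Sin3B+/+ and at 134 and 158 in Sin3B-/-, with the same log2 fold change as Mapk4, 0.81 (limma adjusted p = 3.7e-04). The kinase-binding protein Mapkbp1, known as a scaffold of the JNK branch, had a promoter peak (chr2:119972132-119972784) at 355 and 259 in Sin3B+/+ and at 439.9 and 496 in Sin3B-/- (0.62, limma adjusted p = 0.0048). It was not called without Sin3B+/+ replicate 2 (0.4, limma adjusted p = 0.079) or without Sin3B-/- replicate 2 (0.54, adjusted p = 0.088).

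The classical DUSPs with peaks were Dusp1, Dusp2, Dusp4 and Dusp6, 4 of the 10 annotated. All 9 of their peaks were called higher on the deposited scale, as were 95.7% of all peaks. After centring none was called, against 7.01% of the table called higher, and their median was -0.06. Dusp1, Dusp2 and Dusp4 encode phosphatases of the nucleus, and Dusp6 encodes a phosphatase of the cytoplasm with a preference for ERK. Each of the 4 genes had a promoter peak. The gains at the promoters were 0.69 for Dusp1, 0.66 for Dusp2, 0.62 for Dusp6 and 0.51 for Dusp4 on the log2 scale, all below the table's median.

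Dusp1 is an immediate early gene whose product acts mainly on p38 and JNK. Its promoter peak (chr17:26507979-26509272, centered 106 bp upstream) measured 692 and 516 in Sin3B+/+ and 968 and 958 in Sin3B-/- (limma adjusted p = 0.0021). A peak beyond the gene's end (chr17:26502846-26503529, 5285 bp from the start) measured 274 and 155 in Sin3B+/+ and 477 and 496 in Sin3B-/-. It had the largest gain of any classical DUSP peak, 1.24 on the log2 scale (limma adjusted p = 7.8e-08), but the 2 controls differed 1.77-fold from each other, and the value ranged from 0.82 to 1.65 when each library was left out in turn. After centring it was 0.48 and was not called. The center of this peak lay 13 bp from an annotated start of the noncoding gene AC122252.2, so it may equally be counted to that gene. The third peak (chr17:26504324-26504637) lay 3992 bp from the start of Dusp1 and 1280 bp from one of AC122252.2. It measured 94.9 and 87.1 in Sin3B+/+ and 178 and 133 in Sin3B-/- (0.75, limma adjusted p = 8.5e-04). Here the knockout libraries were the less alike, and without Sin3B-/- replicate 1 the peak was not called (0.54, adjusted p = 0.072).

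Dusp4 also had 3 peaks. The promoter peak (chr8:34806294-34807619, centered 341 bp upstream) measured 689 and 590.2 in Sin3B+/+ and 927 and 887 in Sin3B-/-. It had the smallest gain of the 29 higher peaks, 0.51 (limma adjusted p = 0.019), and it was not called without Sin3B+/+ replicate 2 (0.4, adjusted p = 0.079), without Sin3B-/- replicate 1 (0.48, 0.11) or without Sin3B-/- replicate 2 (0.54, 0.087). A lower peak 1953 bp upstream (chr8:34805098-34805590) measured 118 and 89.8 in Sin3B+/+ and 187 and 226 in Sin3B-/-, a log2 fold change of 1.0 after rounding up (limma adjusted p = 1.4e-05). The intron peak (chr8:34815040-34815944) measured 380.4 and 287 in Sin3B+/+ and 507 and 573 in Sin3B-/- (0.7, limma adjusted p = 0.0017). The gains of the 3 peaks thus ran from 0.51 to 1.0, with the largest at the lowest level and the smallest at the promoter, and after centring they ran from -0.25 to 0.24.

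Dusp2, or PAC-1, is expressed mainly in activated blood cells. Its promoter peak (chr2:127335737-127336356, centered 113 bp upstream) measured 805 and 626 in Sin3B+/+ and 1108 and 1139 in Sin3B-/- (limma adjusted p = 0.0029), and a second peak 7557 bp upstream had a log2 fold change of 0.61. The Dusp6 promoter peak (chr10:99262652-99263403, centered 204 bp upstream) measured 669 and 575 in Sin3B+/+ and 933 and 980.0 in Sin3B-/- (limma adjusted p = 0.0047). At both promoters the 2 knockout values were close together. They were above both controls, as at every higher peak of the table.

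The other DUSPs act mostly on substrates other than MAPKs, and 4 of the 14 annotated had a peak each. All 4 peaks were called higher on the deposited scale, as were 95.7% of all peaks. None was called after centring, against 7.01% of the table called higher. Dusp11 encodes an RNA phosphatase. Its promoter peak (chr6:85961023-85962177) measured 521 and 426 in Sin3B+/+ and 731 and 928 in Sin3B-/- (log2 fold change 0.81, limma adjusted p = 3.9e-04), and it also lay over the start of the antisense gene Gm19265, from which it cannot be told apart. Dusp23 encodes a small atypical phosphatase, and its promoter peak (chr1:172632442-172633413) measured 852 and 693 in Sin3B+/+ and 1097 and 1225 in Sin3B-/- (0.59, limma adjusted p = 0.0068). Dusp22 encodes a phosphatase known to modulate JNK signaling, and the peak over its start (chr13:30659874-30660722) measured 216 and 173 in Sin3B+/+ and 282 and 320.0 in Sin3B-/- (0.63, limma adjusted p = 0.0041). Dusp18 stood apart in level and size. Its intron peak (chr11:3895649-3895940) measured 26.7 and 12.3 in Sin3B+/+ and 45.6 and 53.0 in Sin3B-/-, a log2 fold change of 1.38 (limma adjusted p = 1.8e-09). The 2 controls differed 2.16-fold, and the value lay between 0.86 and 1.91 when each library was left out.

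**Figure D2:**
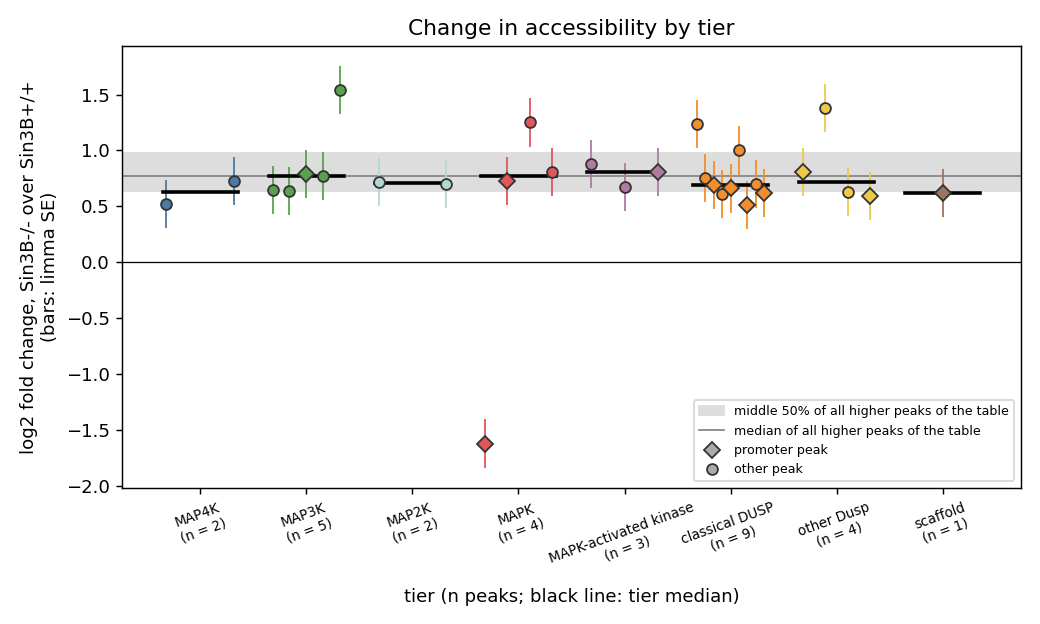
Log2 fold change (Sin3B-/- over Sin3B+/+, deposited scale) of each peak by tier, with the limma standard error of 0.215 as bars, diamonds for promoter peaks and circles for other peaks, black lines for tier medians, and the grey band for the middle 50% of all higher peaks of the table. Tier medians run from 0.62 to 0.81 and overlap, Mapk10 alone lies below 0, and after centring of the libraries the medians run from -0.13 to 0.06.

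Compared by tier, kinases and phosphatases moved by similar amounts on the deposited scale. The median log2 fold change was 0.63 for the 2 MAP4K peaks, 0.77 for the 5 MAP3K peaks, 0.71 for the 2 MAP2K peaks, 0.77 for the 4 MAPK peaks and 0.81 for the 3 peaks of MAPK-activated kinases. It was 0.69 for the 9 classical and 0.72 for the 4 other DUSP peaks. All kinases together had a median of 0.73 over 16 peaks of 11 genes, and all DUSPs a median of 0.69 over 13 peaks of 8 genes. The tiers held few peaks, and all these medians are descriptions without a test. Their positions are also given without a test. A promoter peak, centered between 1000 bp upstream and 100 bp downstream of a start of its gene, was found in 6 of 13 DUSP peaks (46.2%) and 4 of 16 kinase peaks (25%), against 27.8% of the table. DUSP peaks had a median level of 651 and a median GC content of 61.7% in their central 300 bp, and kinase peaks 297 and 54.2%. Among the higher peaks, promoters had a median gain of 0.67 in the members and in the table, and other peaks 0.73 in the members and 0.83 in the table.

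**Figure D3:**
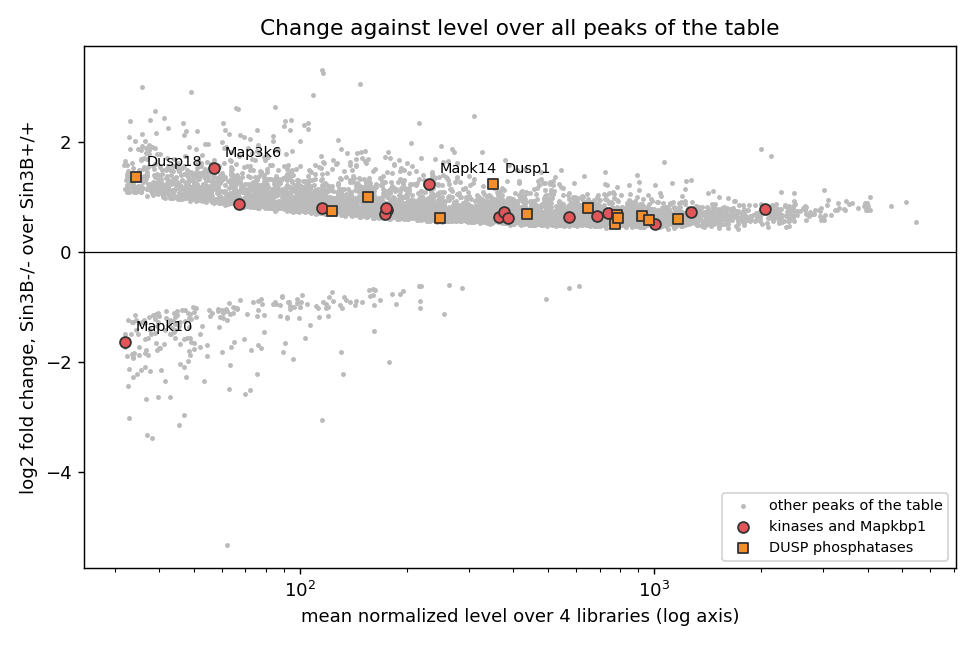
Log2 fold change (Sin3B-/- over Sin3B+/+, deposited scale) against the mean normalized level over the 4 libraries (log axis) for all 5332 peaks, with the other peaks of the table in grey, kinases and Mapkbp1 as red circles and DUSPs as orange squares. Higher peaks with lower levels have larger gains in the table and in the members alike, and Dusp18, Map3k6, Mapk14 and Dusp1 are the members with the largest gains.

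The size of a gain followed the level of the peak. Among the 1276 of the table's higher peaks with the lowest mean level the smallest log2 fold change was 0.7 and the median 1.09, and the 4 members there had a median of 1.13. Among the 1276 with the highest mean level the smallest was 0.43 and the median 0.65, and the 12 members there had a median of 0.67. The rank correlation of gain with level was -0.66 across the 29 higher members and -0.68 across the 5103 higher peaks of the table. These are correlations across peaks of the same 4 libraries, they share the level on both axes, and the smallest gain found in the table was itself larger at low levels. Within genes this order was seen only in part, and it was not tested there. Of the 8 genes with several peaks, 5 (Map3k6, Mapk14, Mapkapk3, Dusp2 and Dusp4) had their largest gain at the peak with the lowest level, and Dusp1, Map2k3 and Map3k1 did not. In the table this held for 69.1% of the 702 genes with several higher peaks. Some differences within member genes were small beside the standard error of 0.215, such as 0.66 against 0.61 at Dusp2.

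**Figure D4:**
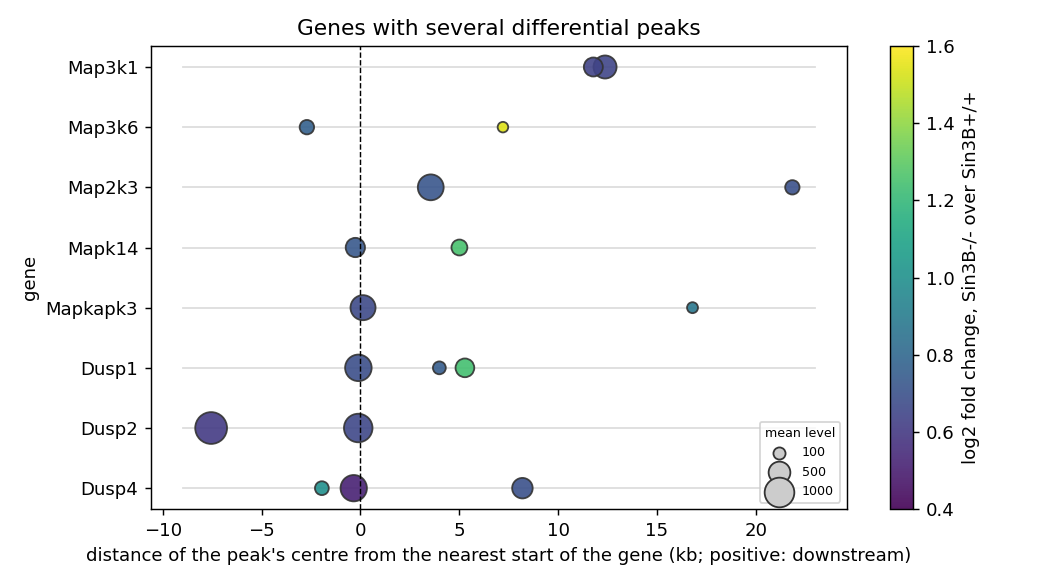
Position of the peaks of the 8 genes with several differential peaks, as the distance in kb of each peak's center from the nearest start of its gene (positive values downstream), with the area of a point growing with the mean level and its color giving the log2 fold change (Sin3B-/- over Sin3B+/+, deposited scale). The large points at the starts of Dusp1, Dusp2, Dusp4, Mapk14 and Mapkapk3 have gains of 0.51 to 0.73, and the gains above 1 lie away from the starts of Map3k6, Mapk14 and Dusp1.

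Motif letters were searched on both strands of the central 300 bp of every peak. Sp/KLF letters were found in 15 of the 30 peaks (50%), against 30.4% of all peaks and 59.1% of the table's promoter peaks. GATA letters were found in 8 (26.7% against 17.9%), NF-Y letters in 7 (23.3% against 35.5%) and the PU.1 letters GAGGAAGT in 3 (10.0% against 8.53%). AP-1 and CRE letters were found in 2 peaks each (6.67%), against 10.4% and 1.99% of the table. No peak held the RUNX letters TGTGGTT, the ETS letters CCGGAAGT, the E2F letters TTTGGCGC or TTTCCCGC, or the SRF CArG box, which were found in 11.8%, 3.11%, 1.24% and 1.46% of the table. The CRE of Dusp1 ended 89 bp and that of Mapk10 22 bp before the start, so the same 8 bases stood in a promoter that was higher and in the one that was lower in Sin3B-/-. Mapk10 was the only one of the 229 lower peaks of the table with this motif (0.437%). AP-1 letters in the Mapk10 peak lay outside the stretch printed above. A match of letters is a description of the window and not a binding site.

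Most of the family had no peak named for it in the table. Of the 78 protein-coding genes of GENCODE M21 that fit the symbol rule, 20 (25.6%) had one, against 15.7% of all 21938 protein-coding genes. These were 11 of 46 kinases (23.9%), 8 of 24 DUSPs (33.3%) and 1 of 8 partner proteins. Among the kinases they were 2 of 5 MAP4Ks, 3 of 18 MAP3Ks, 1 of 7 MAP2Ks, 3 of 13 MAPKs and 2 of 3 MAPK-activated kinases. Mapk3, the JNK genes Mapk8 and Mapk9, the ERK kinases Map2k1 and Map2k2, and the MAP3Ks Map3k7 and Map3k8 had none, and neither had Dusp5, Dusp7, Dusp8, Dusp9, Dusp10 and Dusp16 among the classical DUSPs. These counts take a peak only by the gene the table names for it, and peaks in or beside Dusp10, Dusp3 and Map3k13 were named for other genes. Peaks not called by the authors were not analysed here, so these shares do not measure which of the genes were accessible. The study also reports more differential peaks in each direction than were available here, so some called peaks of these genes may be missing.

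Genes around the cascade were mostly higher too, on the deposited scale, in shares to be read beside the 95.7% of all peaks called higher and the table's median of 0.76. Like the members, most were not called after centring, where 7.01% of the table was called higher and 4.29% lower. From a list of 32 genes between growth factor receptors and Raf, 8 had 10 peaks, of which 9 were higher and 1 was lower, with a median log2 fold change of 0.77 (0.01 after centring). The higher ones included the Raf kinase gene Araf (0.61), the scaffold genes Ksr1 and Ksr2 (0.73 to 0.9), and Spred2 and Spred3 (0.81 and 1.14), which encode inhibitors of Raf activation. The lower one lay upstream of Rasgrp3, which encodes an activator of Ras, at 44.5 and 51.8 in Sin3B+/+ and 20.6 and 18.0 in Sin3B-/- (log2 fold change -1.27, limma adjusted p = 3.2e-08), and it was the only peak of this list called after centring. From 25 genes upstream of the stress-activated branches, 10 had 12 peaks, all higher (median 0.86, and 0.11 after centring, with none called), among them Cdc42 (0.72 and 1.46), Rac1 (0.98), Rac2 (0.9) and Gadd45a (0.46). From a list of 11 other phosphatase genes, 4 had 8 peaks, all higher (median 0.93, and 0.18 after centring, with none called). These genes were Ppm1b, Ptpn7, Ptprr and Ssh2. Ssh2 is not known as a MAPK phosphatase, and its peaks (0.62 to 0.92) count in these medians.

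From 29 genes of MAPK targets, 14 had 25 peaks, all higher on the deposited scale, as were 95.7% of all peaks. Their median log2 fold change was 0.91, against 0.76 over the table and 0.71 over the cascade and its DUSPs, and these differences were not tested. After centring the median was 0.16 and 2 of the 25 peaks, 1 each of Fos and Fosb, were called higher. That share was near the 7.01% of the table called higher after centring. The largest gain was at Fosb, a gene of the AP-1 transcription factor, where a peak measured 164 and 48.7 in Sin3B+/+ and 582 and 439 in Sin3B-/- (2.49, limma adjusted p = 2.5e-28). The controls were far apart there. Both lay below both knockouts, as at every higher peak of the table. A peak upstream of Fos measured 145 and 98.0 in Sin3B+/+ and 408 and 439 in Sin3B-/- (1.82, limma adjusted p = 1.4e-15). The immediate early gene Egr1 had 4 peaks with gains of 0.59 to 0.97, and Junb had 3 with gains of 0.61 to 1.05. The peaks of Fos had gains of 1.0 to 1.82 and those of Fosb gains of 0.99 and 2.49. Dusp1, an immediate early gene as well, lay within the gains of these genes at its promoter (0.69) and at the peak farther beyond its end (1.24).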

How the data were processed

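ATAC-Seq of sorted LT-HSCs was available as 1 table of 5332 peaks with values for 4 libraries. Per the submitters' processing notes and the methods of the study, the authors checked the reads with FastQC, trimmed them with Trimmomatic, aligned them with Bowtie2, took out duplicates with sambamba, called peaks with MACS2, counted and normalized reads per peak in DiffBind, and kept peaks with an FDR under 0.05 in DESeq2. Versions and DiffBind settings were not given in the sources used here. The deposited library values are a normalized signal. They may be reads per peak times 1 factor per library, which could not be established. The deposited log2 columns (mean levels and fold) and the deposited p-value and FDR columns hold the authors' own comparison and were not used. The number of value columns that matched no sample was 0. The processing notes name mm9, but 5330 of 5332 gene identifiers were found in GENCODE M21 and 96.6% of these had the same start and end as on GRCm38 (27 of 30 member peaks), so positions, starts and sequences were read on GRCm38 (Ensembl gene models, RefSeq GRCm38.p6 sequence).

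The members and gene lists were chosen with earlier results of these data known. The genotypes were compared with limma 3.58.1 (R 4.3.3) on log2(level + 1) over all peaks, without a covariate, and p-values were adjusted by the Benjamini-Hochberg method over the whole table with a threshold of 0.05. The test was checked on simulated data with the spread of the fit, in which 200 of 5332 peaks changed by 1 on the log2 scale. It called 96.5% of these and 0.19% of the others. The simulation had no shift between libraries and no earlier selection of peaks, so it does not cover the setting of the real values. A fold change on this scale understates that of low peaks. Same-numbered libraries came from different mice and did not deviate together (correlation -0.101 across peaks). An exact permutation test over 2 against 2 libraries cannot pass the threshold. Values fell on whole multiples of a step per library, but no value lay near 1 step, so that the reads behind them could not be established, and a count test on them, planned for that case, was not run. The named peaks were all those lower in Sin3B-/-, in each tier the 3 with the largest and the 1 with the smallest absolute change, all peaks of genes with 3 peaks, and the promoter peaks of the main MAPK, MAP2K and classical DUSP genes. Alternatives were a pseudocount of 5, a mean level of at least 50, centred libraries, a replicate block, an adjusted p of 0.01, other promoter limits, 1 peak per gene and each library left out. A crossed pairing and a spread that varies with level were added after the data were seen. Python 3.11.15, pandas 2.3.3, numpy 2.4.6, scipy 1.17.1, pysam 0.24.0 and matplotlib 3.10.9 were used.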

Additional observations from a re-analysis of the deposited data

How the results depend on the processing

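Direction and call rested on the scale of the libraries. With each library centred on its median the table's median log2 fold change went from 0.76 to 0.01, 374 peaks of the table and 1 member peak (in Map3k6) were called higher, and 229 and 1 (Mapk10) were called lower. The tier medians became -0.13 for MAP4Ks, 0.01 for MAP3Ks, -0.04 for MAP2Ks, 0.02 for MAPKs, 0.06 for MAPK-activated kinases, -0.06 for classical DUSPs, -0.03 for other DUSPs, -0.13 for Mapkbp1 and -0.04 for all members. Values fell below 0 for Map4k1 (-0.23), Map4k2 (-0.02), Map3k1 (-0.10 and -0.11), Map2k3 (-0.03 and -0.05), the Mapk14 promoter (-0.02), the Mapkapk3 start (-0.08), the Dusp1 promoter (-0.06), Dusp2 (-0.14 and -0.09), the Dusp4 promoter and intron (-0.25 and -0.05), Dusp6 (-0.13), Dusp22 (-0.12), Dusp23 (-0.16) and Mapkbp1 (-0.13). Which scale is right cannot be told from these values. With a mean level of at least 50, 0 member peaks and 125 of the table were lower, since Mapk10, at a mean of 31.9, is left out by construction.

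Leaving out each library gave 14 to 29 member peaks higher (3121 to 5100 in the table), 1 lower (216 to 229 in the table), and a median of 0.59 to 1.02 for MAPK-activated kinases. The lowest counts of higher peaks were those without Sin3B-/- replicate 2, and the highest were those without Sin3B+/+ replicate 1. The arm left with 1 library was assumed to vary like the other. The replicate block gave 29 member peaks higher and 1 lower (5064 and 229 in the table) and changed no member's call. Over all named peaks and settings, 249 of 298 values kept direction and call, 32 kept only direction and 17 reversed, all 17 with centred libraries. The pseudocount of 5, the crossed pairing and the spread that varies with level changed no member's call. Adjusted p-values of weak peaks were far larger, though, when the limma spread varied with level. They went from 1.5e-12 to 1.5e-05 for Mapk10, from 1.6e-11 to 6.0e-07 for the Map3k6 exon peak and from 1.8e-09 to 1.1e-04 for Dusp18. The count test planned for recovered reads was not run. The widest ranges over the libraries left out were those of Dusp18 (0.86 to 1.91) and of the Dusp1 peak farther from the start (0.82 to 1.65).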

Other observations

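A further 5 peaks of the table lay in or beside genes of the family but were annotated to other genes, so the symbol rule did not take them. All 5 were higher in Sin3B-/- on the deposited scale, as were 95.7% of all peaks. Dusp10, a classical phosphatase gene for which no peak was named, held the highest of them (chr1:184033518-184034633), with mean levels of 1103 in Sin3B+/+ and 1794 in Sin3B-/- and a log2 fold change of 0.71. A peak at Dusp3 (chr11:101984019-101985030) had means of 164 and 345 and a change of 1.11. A peak next to the weak Dusp18 peak (chr11:3894738-3895538) had means of 139.8 and 299 and a change of 1.12, so this gene's higher peak also rose. A peak in Map3k13 (chr16:21835661-21835948) had means of 25.1 and 56.1 and a change of 1.2, and one over a long transcript of Dusp1 (chr17:26560498-26560920) had means of 52.3 and 112 and a change of 1.08. These values have no replicate test beyond the one over the whole table, in which all higher peaks were called.

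Other peaks within 100 kb of the member genes were also all higher on the deposited scale, as were 95.7% of all peaks of the table. There were 8 around Map4k2 (median log2 fold change 0.99), 6 around Map3k3 (1.03) and 3 around Dusp1 (1.08), while Mapk10, Mapk14, Mapk4, Mapkapk3, Dusp6, Dusp11, Dusp22, Dusp23 and Map3k1 had 0.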
